A study of Homo sapiens with 6 samples.

Results

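The CXC and CC chemokines described here are 10 of the 58735 genes in an expression table of A375 cells. They are the rows named CXCL1, CXCL2, CXCL3, CXCL5, CXCL6, CXCL8, CXCL10, CXCL16, CCL2 and CCL20. The first 6 of these names attract neutrophils and were set against the other 4. A375 is an established line of human melanoma cells that carries an activating mutation of BRAF. Polyadenylated RNA was sequenced from 3 libraries of cells exposed to CuB for 6 h and from 3 libraries of cells given the solvent DMSO for the same time. CuB is spelled out in the series title as cucurbitacin B, a triterpenoid from plants of the gourd family. Its dose is uncertain, because the protocol states 0.2 µM and the library names state 100 nM. No label says whether the replicates were separate cultures, so p-values measure only the spread between these libraries, which may be technical.

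Chemokines are small secreted proteins that guide migrating leukocytes through receptors on their surface. CXC chemokines with a Glu-Leu-Arg motif before the first cysteine, among them CXCL1, CXCL2, CXCL3, CXCL5, CXCL6 and CXCL8, act on CXCR1 and CXCR2 and draw neutrophils. CXCL10 acts on CXCR3 of T and NK cells, CXCL16 is made as a transmembrane protein and acts on CXCR6, CCL2 acts on CCR2 of monocytes, and CCL20 acts on CCR6. Transcription of many of these genes is driven by NF-kB together with AP-1 or C/EBP factors, and their mRNAs often carry AU-rich elements that shorten their life. Melanoma cells are known to secrete CXCL8 and CXCL1, the last also called melanoma growth stimulatory activity.

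The promoters of the neutrophil-attracting genes share the letters GGAATTTCC, a kB motif of the kind that NF-kB dimers can bind. These windows are shown because the genes that rose and the genes at or near 0 both hold them. Promoter sequences are from RefSeq (build GRCh38.p14), from 250 bases before to 50 bases after RefSeq's start of the gene, and 8 of the 10 members were matched by symbol. The promoters of CXCL16 and CCL2 were not used here. Each window is written 5′ to 3′ on the strand of its gene, and the capitals mark GGAATTTCC or its reverse complement GGAAATTCC.
CXCL1 (chr4:73869305-73869333, plus strand): tggaactccgGGAATTTCCctggcccggg
CXCL2 (chr4:74099254-74099282, minus strand): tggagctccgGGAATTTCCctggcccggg
CXCL3 (chr4:74038749-74038777, minus strand): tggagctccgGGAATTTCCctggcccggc
CXCL8 (chr4:73740468-73740496, plus strand): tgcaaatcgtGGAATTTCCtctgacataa
CXCL5 (chr4:73998749-73998777, minus strand): atgagttcagGGAATTTCCccagcatccc
CXCL6 (chr4:73836579-73836607, plus strand): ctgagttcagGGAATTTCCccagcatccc
CXCL10 (chr4:76023655-76023683, minus strand): aggagcagagGGAAATTCCgtaacttgga
All 6 neutrophil-attracting genes held GGAATTTCC on the strand of the gene. It began 78, 77 and 78 bases before the start in CXCL1, CXCL2 and CXCL3, 90 and 89 bases before it in CXCL5 and CXCL6, and 91 bases before it in CXCL8. RefSeq's start is the first base of the gene in the expression table for CXCL1 and CXCL10 only. It lies 98, 118, 102, 181 and 63 bases inside the table's gene in CXCL2, CXCL3, CXCL5, CXCL6 and CXCL8 and 8103 bases inside it in CCL20, so the letters of CXCL2, CXCL3, CXCL5 and CXCL6 lie within the gene coordinates given with the levels. CXCL10 held the reverse complement, which began 176 bases before its start, and CCL20 held neither. Of 27305 promoters of the same length, 129 (0.472%) held these 9 letters on either strand, and of the 9012 promoters of tested genes 0.433% did. Over their aligned bases the promoters of CXCL1 and CXCL3 were 87.0% identical, those of CXCL1 and CXCL2 85.9%, those of CXCL2 and CXCL3 83.6%, and those of CXCL5 and CXCL6 84.2%, so these matches are not independent of each other.

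The CXCL8 promoter is shown whole, because 3 of the searched motifs stand in it. The capitals mark, in order, the AP-1 motif TGANTCA, the kB motif and TATAAA.
CXCL8 promoter (chr4:73740319-73740618, plus strand): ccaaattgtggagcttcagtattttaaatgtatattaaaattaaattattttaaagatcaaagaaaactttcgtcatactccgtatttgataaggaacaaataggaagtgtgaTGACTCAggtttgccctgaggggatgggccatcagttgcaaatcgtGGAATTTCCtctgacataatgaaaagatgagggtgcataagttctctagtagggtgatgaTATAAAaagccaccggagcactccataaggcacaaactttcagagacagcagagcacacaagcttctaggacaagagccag
Shares of all promoters and of the 9012 promoters of tested genes are given beside each motif. Among the 8 promoters, TGANTCA was found in CXCL8 alone, against 7.76% of all promoters and 4.36% of those of tested genes. TATAAA was found in CXCL8 and CCL20, against 11.95% of all promoters and 5.14% of those of tested genes. The exact C/EBP motif TTGCNNAA was found in CXCL2 alone, on the reverse strand, against 10.6% of all promoters and 6.77% of those of tested genes. The CXCL8 promoter holds ttgcaaat just before GGAATTTCC. This stretch differs from the C/EBP motif in the last letter only and was not counted. The GC box GGGCGG was found in CXCL1, CXCL3 and CXCL6, against 44.6% of all promoters and 71.3% of those of tested genes. The interferon response motif was found in CXCL10 alone, against 3.65% of all promoters and 2.80% of those of tested genes. The general 10-letter kB consensus, which overlaps GGAATTTCC in CXCL1, CXCL2, CXCL3, CXCL5, CXCL6 and CXCL10, was also found in CCL20, against 5.72% of all promoters and 6.48% of those of tested genes. Both strands were searched throughout. A match describes letters in the window and is neither a site nor a cause. A motif that was not found is missing only as these exact letters and only from this window.

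Expression was deposited in FPKM, fragments per kilobase of gene length, scaled to library size. The values convert back to whole fragments (tolerance 0.01), and the totals recovered in this way ranged from 15502971 to 16137093 fragments in CuB libraries and from 14845976 to 15797757 in DMSO libraries. Of the melanocyte lineage markers, SOX10 was at 184, 224 and 245 FPKM with CuB and at 175, 256 and 162 FPKM with DMSO. MITF ranged from 3.75 to 5.17 FPKM with CuB and from 3.42 to 4.25 FPKM with DMSO. The pigment genes PMEL, TYR, TYRP1 and DCT stayed at or under 0.264 FPKM in every library, and S100B fell (log2 fold change -1.84, SE 0.08, limma adjusted p = 1.27e-05). Neutrophils themselves were not visible in the RNA, since 6 of 8 neutrophil markers were at 0 in all 6 libraries and the 8 markers summed to at most 0.0168 FPKM in any library.

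Chemokine mRNA rose with CuB in most of the members that could be tested. CXCL8, CXCL1, CXCL2, CXCL3, CCL2 and CCL20 were higher with CuB, and CXCL16 was lower. Genes were tested by limma on log2(FPKM + 1) where their mean over all 6 libraries was at least 1 FPKM, with Benjamini-Hochberg adjustment over the 13273 genes that passed. Of the 10 members 7 passed this filter, and at an adjusted p under 0.05 there were 6 higher and 1 lower. CCL20, counted among the 6, had a DMSO mean of 0.755 FPKM. It passed the filter only through its CuB level, so it had to differ and adds no support to these counts. Among all tested genes 22.9% were called higher, 15.6% lower and 38.6% in either direction. In the same 6 members every CuB library was above every DMSO library, and in CXCL16 every CuB library was below, whereas 51.5% of all tested genes did not overlap, made up of 29.8% higher and 21.7% lower with CuB. The 4 tested neutrophil-attracting genes were all called higher, with a median log2 fold change of 3.26. Of the 3 other tested members 2 were called higher and 1 lower, with a median of 1.68. That median takes in CCL20, which had to differ, beside 1.68 for CCL2 and -1.03 for CXCL16. The difference between these 2 classes was not tested. The median over all tested genes was 0.05. A rise of at least 4-fold on the log2(FPKM + 1) scale was reached by CXCL8, CXCL2, CXCL1 and CXCL3, against 0.995% of all tested genes. The libraries are bulk RNA, so more cells that express a gene and more of its RNA per cell cannot be told apart.

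**Figure D1:**
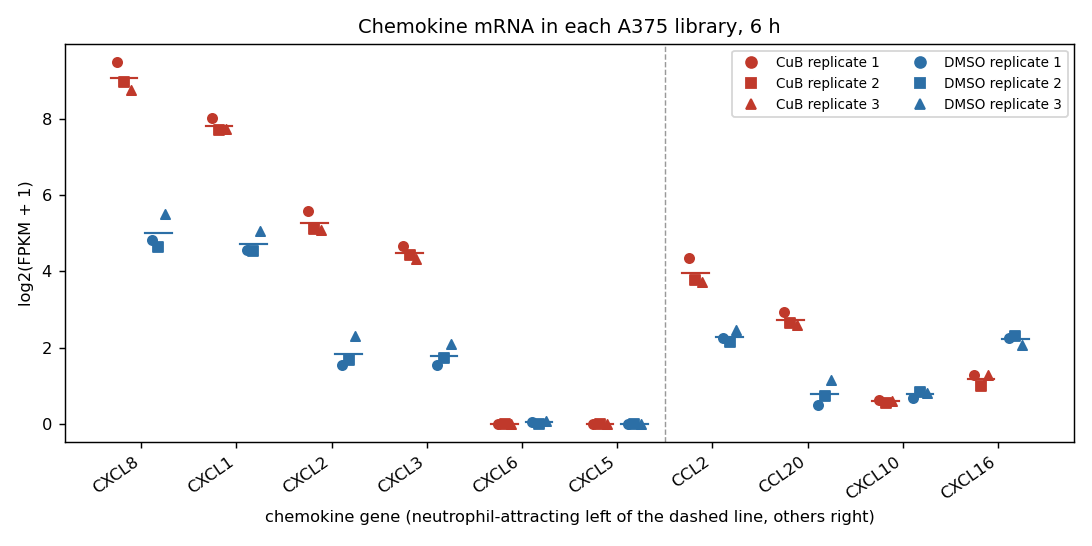
Expression of the 10 chemokine genes in each library, as log2(FPKM + 1), with CuB libraries in red left of DMSO libraries in blue and a short line at the mean of each group. CXCL8 lies at 436 to 721 FPKM with CuB and 24.0 to 44.8 FPKM with DMSO, while CXCL5 and CXCL6 lie at or near 0 in all 6 libraries.

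CXCL8, also known as interleukin 8 and a strong attractant of neutrophils, lies on the plus strand of chromosome 4 (ENSG00000169429, GRCh38 chr4:73740506-73743716). It was at 721, 498 and 436 FPKM in CuB replicates 1, 2 and 3, against 27.5, 24.0 and 44.8 FPKM in DMSO replicates 1, 2 and 3. The groups stood far apart, the lowest CuB library being 9.71 times the highest DMSO library, and within each group 1 library stood above the other 2. CXCL8 averaged 551 ± 150.2 FPKM with CuB and 32.1 ± 11.2 FPKM with DMSO (SD, n = 3 each), a ratio of 17.2. Its log2 fold change of 4.08 (SE 0.27, limma adjusted p = 6.89e-05) was the 10th largest rise of all tested genes. By mean FPKM it stood 30th among the 13273 tested genes with CuB and 1215th with DMSO.

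CXCL1, which also acts on CXCR2, lies 128.9 kb further along the same chromosome (ENSG00000163739, chr4:73869393-73871242, plus strand). Its level was 259, 209 and 211 FPKM with CuB and 22.8, 22.4 and 32.3 FPKM with DMSO. Every CuB library was at least 6.47 times every DMSO library. The means were 226 ± 28.4 FPKM with CuB and 25.8 ± 5.63 FPKM with DMSO (SD, n = 3 each), a ratio of 8.77. The log2 fold change was 3.10 (SE 0.16, limma adjusted p = 2.48e-05), and CXCL1 stood 107th by mean FPKM with CuB and 1660th with DMSO.

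CXCL2 and CXCL3, close relatives of CXCL1 with the same receptor, had the same direction from a lower level. CXCL2 (ENSG00000081041, chr4:74097035-74099293, minus strand) was at 47.5, 33.6 and 33.2 FPKM with CuB, against 1.91, 2.20 and 3.97 FPKM with DMSO. Its means of 38.1 ± 8.13 FPKM with CuB and 2.69 ± 1.12 FPKM with DMSO (SD, n = 3 each) gave a ratio of 14.1, and the log2 fold change was 3.42 (SE 0.23, limma adjusted p = 7.89e-05). The groups did not overlap, and the 3 DMSO libraries of CXCL2 differed by up to 2.08 times. CXCL3 (ENSG00000163734, chr4:74036589-74038807, minus strand) was at 24.4, 20.7 and 18.9 FPKM with CuB, against 1.94, 2.28 and 3.23 FPKM with DMSO. Its means of 21.3 ± 2.80 FPKM with CuB and 2.49 ± 0.671 FPKM with DMSO (SD, n = 3 each) gave a ratio of 8.59, and the log2 fold change was 2.69 (SE 0.16, limma adjusted p = 4.36e-05). The groups did not overlap here either, the lowest CuB library being 5.85 times the highest DMSO library.

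The coding sequences of these 3 genes are close enough that the counting of their fragments matters. Over the aligned bases CXCL2 and CXCL3 were 94.4% identical, CXCL1 and CXCL2 93.5%, and CXCL1 and CXCL3 90.7%. Stretches of 50 bases of CXCL2 that also occur unchanged in CXCL3 were 8.99% of all such stretches, and 4.81% of those of CXCL1 occur in CXCL2. How fragments matching several genes were assigned is not given in the sources used here, so part of the split between the 3 genes is uncertain. CXCL8 shared no stretch of 50 bases with any of the other members.

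CXCL5 and CXCL6, the remaining neutrophil-attracting genes, were at or near 0 in both groups. CXCL5 (ENSG00000163735, chr4:73995642-73998779, minus strand) had 0 fragments in all 6 libraries, which allows up to 0.0269 FPKM with CuB and 0.0250 FPKM with DMSO at 3 fragments over a group. CXCL6 (ENSG00000124875, chr4:73836497-73849064, plus strand) had 0 fragments in every CuB library and 1, 0 and 2 fragments in the DMSO libraries. Both groups of both genes are at or under 3 fragments, so no fold is given. Such limits cover counting error only.

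**Figure D2:**
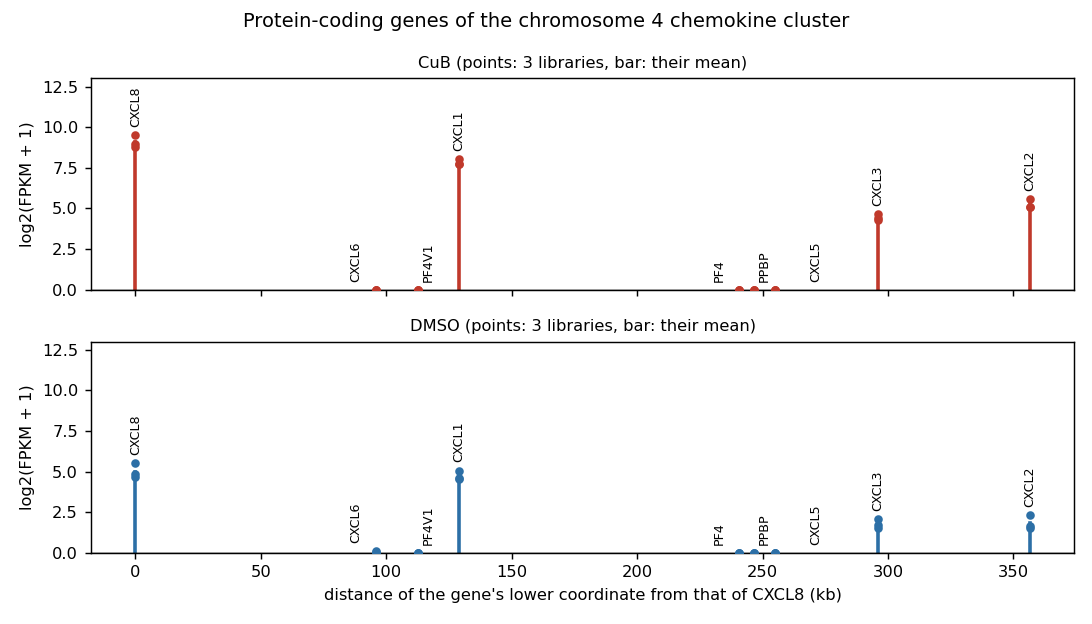
Protein-coding genes of the chromosome 4 chemokine cluster by distance in kb from CXCL8, with log2(FPKM + 1) of each library as points and the group mean as a bar, CuB above and DMSO below. CXCL8, CXCL1, CXCL3 and CXCL2 carry signal in both groups, and CXCL6, PF4V1, PF4, PPBP and CXCL5 between them lie at or near 0.

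The map of the cluster shows that genes with signal and genes at or near 0 alternate along the 356.5 kb that separate CXCL8 from CXCL2. In order, the protein-coding genes are CXCL8, CXCL6, PF4V1, CXCL1, PF4, PPBP, CXCL5, CXCL3 and CXCL2. PF4, PF4V1 and PPBP, which encode platelet chemokines, were at 0 in all 6 libraries, as CXCL5 was. CXCL5 is the neighbour of CXCL3, and its own promoter window holds the letters GGAATTTCC shown above. Whether NF-kB binds there in these cells was not tested.

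Among the other members, CCL2 and CCL20 rose. CCL2, the monocyte chemoattractant, lies on chromosome 17 (ENSG00000108691, chr17:34255218-34257203, plus strand) and was at 19.6, 12.8 and 12.3 FPKM with CuB, against 3.77, 3.41 and 4.48 FPKM with DMSO. No CuB library overlapped a DMSO library, and CuB replicate 1 stood above the other 2. The means were 14.9 ± 4.08 FPKM with CuB and 3.89 ± 0.544 FPKM with DMSO (SD, n = 3 each), a ratio of 3.82, with a log2 fold change of 1.68 (SE 0.18, limma adjusted p = 0.000626). CCL20, which draws CCR6-bearing dendritic and T cells, lies on chromosome 2 (ENSG00000115009, chr2:227805739-227817564, plus strand). It was at 6.60, 5.23 and 5.08 FPKM with CuB, against 0.409, 0.651 and 1.21 FPKM with DMSO. The means of 5.63 ± 0.837 FPKM with CuB and 0.755 ± 0.408 FPKM with DMSO (SD, n = 3 each) gave a ratio of 7.46 and a log2 fold change of 1.94 (SE 0.18, limma adjusted p = 0.00036). CCL20 passed the filter only through its CuB level and so had to differ, and its DMSO values rest on 10, 17 and 30 fragments.

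CXCL16, the transmembrane ligand of CXCR6, fell. Its gene lies on chromosome 17 (ENSG00000161921, chr17:4733526-4739922, minus strand), and it was at 1.41, 0.986 and 1.44 FPKM with CuB, against 3.78, 3.96 and 3.21 FPKM with DMSO. Every CuB library was below every DMSO library. The means were 1.28 ± 0.254 FPKM with CuB and 3.65 ± 0.390 FPKM with DMSO (SD, n = 3 each), a ratio of 0.351, with a log2 fold change of -1.03 (SE 0.13, limma adjusted p = 0.00107). Of its 2794 exon bases 85 (3.04%) are shared with MED11 on the opposite strand, which was at 3.68, 3.50 and 4.03 FPKM with CuB and 6.09, 6.91 and 4.64 FPKM with DMSO. Strand is not marked by the kit, so the fragments of the shared bases cannot be told apart, and the part of MED11 in the CXCL16 values was not tested.

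CXCL10, an interferon-induced chemokine for T cells, stayed under the filter. It lies on chromosome 4 outside the cluster (ENSG00000169245, chr4:76021117-76023497, minus strand) and was at 0.540, 0.457 and 0.512 FPKM with CuB, against 0.609, 0.779 and 0.763 FPKM with DMSO. These rest on 9, 8 and 9 fragments with CuB and on 11, 15 and 14 with DMSO. The CuB libraries were all below the DMSO libraries, as for 21.7% of all tested genes. Scaled to library size, the ratio of summed fragments was 0.699, with an exact 95% interval of 0.410 to 1.17 that covers counting error only, so a difference was not detectable at this depth. Without the filter limma gave a log2 fold change of -0.19 with an adjusted p of 0.297, in a fit that called 14.1% of 32824 genes. CXCL10 lies inside ART3 on the opposite strand but shares no exon base with it. ART3 was at 4.24, 3.22 and 3.41 FPKM with CuB and 33.6, 28.0 and 35.1 FPKM with DMSO, and its part in the CXCL10 values was not tested.

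**Figure D3:**
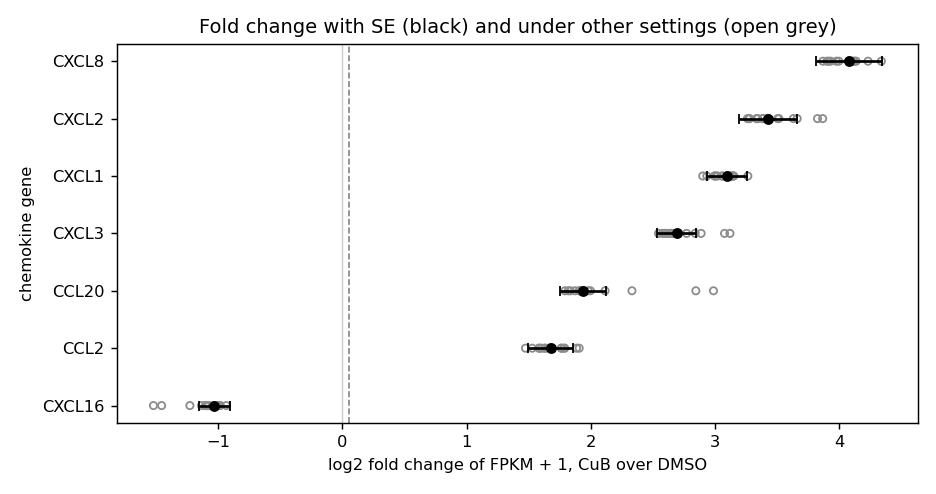
Log2 fold change of FPKM + 1, CuB over DMSO, for the 7 tested chemokines, with the SE as a black bar, the values under other settings as open grey circles and a dashed line at the median of all tested genes, 0.05. CXCL8 at 4.08 is highest, and CXCL16 at -1.03 is the only tested member left of the dashed line.

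Levels were set side by side per kilobase of gene. With CuB the order of mean FPKM was CXCL8, CXCL1, CXCL2, CXCL3, CCL2, CCL20, CXCL16, CXCL10, CXCL6 and CXCL5. Among neighbours in that order, the libraries of CXCL3 (18.9 to 24.4 FPKM) and CCL2 (12.3 to 19.6 FPKM) overlapped, and both CXCL5 and CXCL6 were at 0. With DMSO, CXCL8 and CXCL1 overlapped at the top, and CCL2, CXCL16, CXCL2 and CXCL3 followed with ranges that overlapped from each gene to the next. CCL20 and CXCL10 overlapped below them. By mean FPKM, CXCL2 and CXCL3 stood above CCL2 and CXCL16 with CuB and below them with DMSO. In DMSO replicate 3 alone both were above CXCL16, at 3.97 and 3.23 FPKM against 3.21 FPKM.

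The sum over the 6 neutrophil-attracting genes was 1052, 761 and 698 FPKM with CuB and 54.2, 50.9 and 84.4 FPKM with DMSO. Its means of 837 ± 189 FPKM with CuB and 63.2 ± 18.5 FPKM with DMSO (SD, n = 3 each) gave a ratio of 13.3. The 4 other members summed to 28.1, 19.4 and 19.3 FPKM with CuB and to 8.57, 8.80 and 9.66 FPKM with DMSO, a ratio of means of 2.47. CXCL8 held 68.5%, 65.4% and 62.4% of the neutrophil-attracting sum with CuB, against 50.8%, 47.2% and 53.1% with DMSO. CXCL1 held 24.6%, 27.5% and 30.2% with CuB, against 42.0%, 44.0% and 38.3% with DMSO. The make-up of the sum thus differed, with CXCL8 at a larger share and CXCL1 at a smaller share in every CuB library.

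Ratios within a library were compared for 4 pairs by an exact 2-sided permutation test, which cannot give a p below 0.1 with 3 libraries a group. CXCL8 over CXCL1 was 2.78, 2.38 and 2.07 with CuB and 1.21, 1.07 and 1.39 with DMSO (exact permutation p = 0.1, adjusted p = 0.133). CXCL2 over CXCL1 was 0.183, 0.161 and 0.157 with CuB and 0.0839, 0.0982 and 0.123 with DMSO, and CXCL2 over CXCL3 was 1.95, 1.62 and 1.76 with CuB and 0.986, 0.962 and 1.23 with DMSO. Both had the same exact permutation p of 0.1 and adjusted p of 0.133, with all 3 CuB ratios above all 3 DMSO ratios. CXCL3 over CXCL1 was 0.0941, 0.0990 and 0.0897 with CuB and 0.0851, 0.102 and 0.1 with DMSO, which overlap (exact permutation p = 0.8, adjusted p = 0.8).

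**Figure D4:**
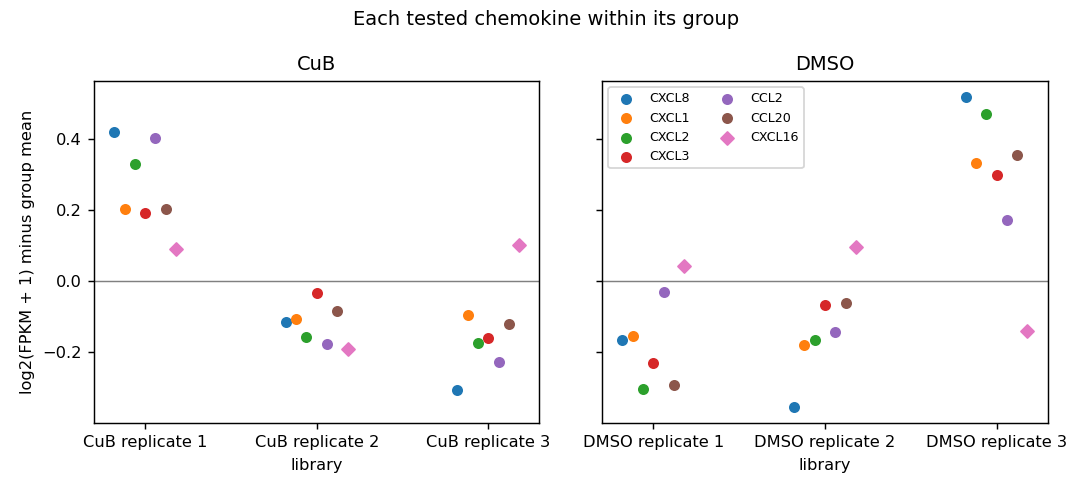
Deviation of each tested chemokine from its group mean on the log2(FPKM + 1) scale, by library, CuB left and DMSO right. The 6 chemokines that rose, drawn as circles, are highest in CuB replicate 1 and in DMSO replicate 3, and CXCL16, drawn as a diamond, is not.

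The members that rose also varied together within the groups, as the plot of deviations by library shows. The order counted here is the one these members showed, so its count among them is a description and no test. CuB replicate 1 was the highest CuB library and DMSO replicate 3 the highest DMSO library in 6 of these 6 genes. Both held for 26.4% of all tested genes, for 26.1% of the genes called higher, and for 4 of the 13 NF-kB genes called higher. Transcript GC content was 33.4% in CXCL8, 35.5% in CCL20, 42.6% in CCL2, 45.6% in CXCL1, 46.0% in CXCL2 and 50.5% in CXCL3. The median over tested genes was 47.7%. After a GC correction, a setting chosen after seeing the data, the order held in 6 of 6 members and in 15.9% of all tested genes. The spread itself was 1.66 times between the highest and lowest CuB library for CXCL8, which 10.1% of tested genes matched or passed. For CCL20 with DMSO it was 2.95 times, which 2.05% matched or passed.

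The protein-coding genes whose log2(FPKM + 1) was most like that of CXCL8 over the 6 libraries were TNFRSF9, BIRC3, TNFAIP8, RBM28 and RSRC2. Pearson's r ran from 0.999 to 0.9995, a description over 6 points that share 2 groups and their library differences. TNFRSF9, a receptor of the TNF family, was at 5.77, 4.93 and 4.35 FPKM with CuB and 0.710, 0.540 and 1.00 FPKM with DMSO. BIRC3, an inhibitor of apoptosis, was at 71.1, 56.4 and 47.1 FPKM with CuB and 2.998, 2.42 and 4.58 FPKM with DMSO. Like CXCL8, all of these genes, with TNFAIP8, RBM28 and RSRC2, were highest in CuB replicate 1 and in DMSO replicate 3. They were picked by likeness to CXCL8 over the same libraries, so this order follows largely from the choice. The DMSO means of TNFRSF9 and TNFAIP8 were 0.751 and 0.543 FPKM, so both passed the filter only through their CuB level.

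Genes for NF-kB subunits, which are known to act at kB sites, and for inhibitors and other regulators of the pathway were mostly higher with CuB. Of 15 tested genes 13 rose and none fell, with a median log2 fold change of 1.57 against 0.05 over all tested genes. Of all tested genes 22.9% were called higher and 15.6% lower. The 2 that did not pass were the kinase genes CHUK (0.28) and IKBKB (0.13). TNFAIP3, a feedback inhibitor of the pathway, was at 64.8, 62.3 and 58.9 FPKM with CuB and 1.999, 1.57 and 2.41 FPKM with DMSO, a log2 fold change of 4.40 (SE 0.12, limma adjusted p = 3.82e-06). NFKBIA, which holds NF-kB in the cytoplasm, was at 77.9, 76.6 and 71.5 FPKM with CuB and 10.9, 10.5 and 12.4 FPKM with DMSO, a log2 fold change of 2.64 (SE 0.09, limma adjusted p = 4.96e-06). The subunit RELB rose by 2.55 (SE 0.20, limma adjusted p = 0.000142) and the inhibitor NFKBIE by 2.44 (SE 0.18, limma adjusted p = 0.000119) on the same scale. Inhibitors and subunits moved the same way, and mRNA does not show where the proteins are.

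The genes that share the promoter letters GGAATTTCC with the neutrophil-attracting members were a mixed group. Of 129 such promoters 39 belonged to tested genes, of which 16 (41.0%) were called higher and 2 lower, with a median log2 fold change of 0.29. Without the chemokines, 12 of 35 (34.3%) were called higher, against 25.1% of 8975 tested genes whose promoters lack the letters. NFKBIA, NFKBIZ, ICAM1, TNFRSF9, REL and NFKB1 were among the 12, named here after their values were seen. The rest of the 12, MAPK6, ZNF44, SEC24A, BRCA2, PTPN2 and CACHD1, rose by less, from 0.45 to 0.91. NFKBIA, NFKBIZ, REL and NFKB1 were already counted among the NF-kB genes. TNFRSF9 passed the filter only through its CuB level and adds no support. TFB1M and PLPP6 were the 2 called lower.

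AP-1 and C/EBP factors, partners of NF-kB at the CXCL8 promoter, rose in 10 of 11 tested genes and fell in none, with a median of 2.46. Among all tested genes 22.9% were called higher and 15.6% lower. CEBPD was the gene that did not pass (0.23). JUN was at 289, 353 and 360 FPKM with CuB and 1.95, 3.35 and 1.81 FPKM with DMSO, a log2 fold change of 6.66 (SE 0.18, limma adjusted p = 3.82e-06), the largest of all tested genes. ATF3, a stress-induced partner of JUN, was at 76.1, 71.8 and 65.5 FPKM with CuB and 0.758, 0.590 and 0.587 FPKM with DMSO, a log2 fold change of 5.45 (SE 0.09, limma adjusted p = 6.62e-07). The DMSO mean of ATF3 was under 1 FPKM, so it passed the filter only through its CuB level and had to differ. FOSB rose by 3.73 (SE 0.14, limma adjusted p = 7.2e-06) and FOS by 3.29 (SE 0.09, limma adjusted p = 3.82e-06).

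Genes of the interferon list, which holds factors that drive CXCL10 as well as other interferon-induced genes, were called in both directions. Of 10 tested genes 2 rose, 2 fell and 6 did not pass, with a median of 0.05 that turned negative in several other settings. These counts are near the shares over all tested genes, 22.9% higher and 15.6% lower. IRF1, a factor induced by both interferon and NF-kB, was at 11.6, 13.1 and 12.1 FPKM with CuB and 1.30, 1.28 and 1.32 FPKM with DMSO, a log2 fold change of 2.52 (SE 0.08, limma adjusted p = 4.96e-06). IRF7 rose by 0.77 (SE 0.17, limma adjusted p = 0.0107), and STAT2, a signal carrier of type I interferon, fell by 0.58 (SE 0.08, limma adjusted p = 0.00216). IFIT3, an interferon-induced antiviral gene, fell by 0.29 (SE 0.09, limma adjusted p = 0.0375), a call that 8 of the other settings did not keep. Beside these genes, CXCL10 itself stayed at or under 0.779 FPKM in every library.

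Cytokines that induce chemokines, and their receptors, gave 6 higher, 1 lower and 5 that did not pass among 12 tested genes, with a median of 0.43. The shares over all tested genes were 22.9% higher and 15.6% lower. LIF, an IL-6 family cytokine, was at 126, 138 and 140.1 FPKM with CuB and 11.0, 14.4 and 11.8 FPKM with DMSO, a log2 fold change of 3.35 (SE 0.11, limma adjusted p = 4.69e-06). TNF, a classical inducer of NF-kB, was at 3.49, 2.65 and 3.23 FPKM with CuB and 0, 0.0729 and 0.268 FPKM with DMSO, a log2 fold change of 1.89 (SE 0.15, limma adjusted p = 0.000153). With a DMSO mean under 1 FPKM, TNF too passed the filter only through its CuB level and had to differ. IL1A, which signals through the IL-1 receptor, rose by 0.66 (SE 0.17, limma adjusted p = 0.0222), a call that 3 of the other settings did not keep. The gene for the second TNF receptor, TNFRSF1B, fell by 0.66 (SE 0.15, limma adjusted p = 0.0146).

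The 3′ UTRs of the members differ in their copies of ATTTA, the core of AU-rich elements, and windows of the 6 neutrophil-attracting members, CCL2 and CXCL16 are shown to compare them. Each window is the 30 bases of the GENCODE 29 3′ UTR with the most ATTTA, written 5′ to 3′ in DNA letters, with ATTTA in capitals and positions counted from 1 at the first base of the UTR.
CXCL1 (bases 129 to 158): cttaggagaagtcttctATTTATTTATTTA
CXCL2 (bases 137 to 166): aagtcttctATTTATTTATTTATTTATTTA
CXCL3 (bases 143 to 172): ttacgagggttctacttATTTAtgtATTTA
CXCL5 (bases 920 to 949): caaacaatttgaatataaATTTAtcATTTA
CXCL6 (bases 187 to 216): gaagtactaatatagtatttccactATTTA
CXCL8 (bases 644 to 673): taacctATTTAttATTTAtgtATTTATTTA
CCL2 (bases 111 to 140): tatgccttaagtaatgttaattcttATTTA
CXCL16 (bases 171 to 200): gccactgccctctcttaggcccctcATTTA
The windows of CXCL6, CCL2 and CXCL16 hold 1 copy each. Over the whole 3′ UTR, CXCL1, CXCL2, CXCL3, CXCL5, CXCL6 and CXCL8 held 5, 10, 7, 11, 6 and 9 copies of ATTTA, overlapping copies included. CCL20 held 3, and CXCL10, CXCL16 and CCL2 held 1 each, against a median of 2 over 10824 tested genes with a 3′ UTR. The UTRs differ in length, and per kilobase the copies were 7.08, 13.9, 10.4, 5.51, 5.36 and 7.19 in these 6 genes, 6.65 in CCL20, 2.66 in CCL2, 1.23 in CXCL10 and 1.02 in CXCL16. The longer TTATTTATT was found 3 times in CXCL1, 5 times in CXCL2 and 1 time each in CXCL3 and CXCL8, and in none of the other members, against 8.33% of tested genes. Over all tested genes, 28.7% of the 902 with TTATTTATT and 24.9% of the 9922 without it were called higher.

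Factors that act on such elements were themselves higher in part. Of 14 tested decay genes 8 rose, 1 fell and 5 did not pass, with a median of 0.37. Over all tested genes 22.9% were called higher and 15.6% lower. ZFP36, which binds AU-rich elements and speeds decay, was at 48.3, 47.5 and 50.4 FPKM with CuB and 4.02, 4.95 and 4.17 FPKM with DMSO, a log2 fold change of 3.21 (SE 0.09, limma adjusted p = 3.82e-06). ZC3H12A, a nuclease of stem-loops in cytokine mRNAs, rose by 2.45 (SE 0.11, limma adjusted p = 1.3e-05), and its relative ZC3H12C by 1.58 (SE 0.15, limma adjusted p = 0.000346). BTG2, which recruits the deadenylase complex, rose by 1.16 (SE 0.09, limma adjusted p = 0.000159). The gene that fell, ELAVL1, encodes a protein that stabilises AU-rich mRNAs, and its change of -0.22 (SE 0.07, limma adjusted p = 0.0425) kept its call in 13 of the 20 other settings and lost it in 7.

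Enzymes that trim or shed chemokines rose in 6 of 9 tested genes and fell in 1, with a median of 0.45. The shares over all tested genes were 22.9% higher and 15.6% lower. MMP9, a gelatinase that can trim CXCL8 to a more active form, was at 13.8, 16.7 and 16.9 FPKM with CuB and 0.223, 0.288 and 0.302 FPKM with DMSO, a log2 fold change of 3.72 (SE 0.11, limma adjusted p = 3.82e-06). The collagenase gene MMP1 was at 26.04, 22.2 and 15.01 FPKM with CuB and 0.430, 0.527 and 0.585 FPKM with DMSO, a log2 fold change of 3.83 (SE 0.19, limma adjusted p = 2.16e-05). Both metalloproteinase genes had DMSO means under 1 FPKM, passed the filter only through their CuB level and had to differ. ANPEP, an aminopeptidase, rose by 0.96 (SE 0.12, limma adjusted p = 0.00123) and the convertase FURIN by 0.73 (SE 0.16, limma adjusted p = 0.0101). ADAM10, known to shed CXCL16 from the cell surface, was at 13.99, 13.6 and 12.005 FPKM with CuB and 14.9, 12.8 and 16.4 FPKM with DMSO, which overlap (limma adjusted p = 0.358). MMP2 was the gene that fell (log2 fold change -0.69, SE 0.12, limma adjusted p = 0.005).

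Growth factors of granulocytes and myeloid cells, with related cytokines, rose in 5 of 5 tested genes out of 10 on the list, with a median of 3.08. Among all tested genes 22.9% were called higher and 15.6% lower. CSF2, which supports granulocytes and macrophages, was at 13.4, 13.4 and 12.6 FPKM with CuB and 0.579, 0.621 and 0.814 FPKM with DMSO, a log2 fold change of 3.08 (SE 0.09, limma adjusted p = 3.82e-06). Its DMSO mean was under 1 FPKM, so it passed the filter only through its CuB level and had to differ. CSF2 therefore adds no support to the count, and the median of the list is its own value. IL24 and IL11, cytokines of the IL-10 and IL-6 families, rose by 4.86 (SE 0.11, limma adjusted p = 2.61e-06) and 4.18 (SE 0.11, limma adjusted p = 3.82e-06). VEGFA, the angiogenic factor, rose by 1.83 (SE 0.10, limma adjusted p = 3.73e-05). CSF3, the granulocyte growth factor itself, stayed under the filter at 0.127, 0.212 and 0.271 FPKM with CuB and 0, 0.0275 and 0.0289 FPKM with DMSO.

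**Figure D5:**
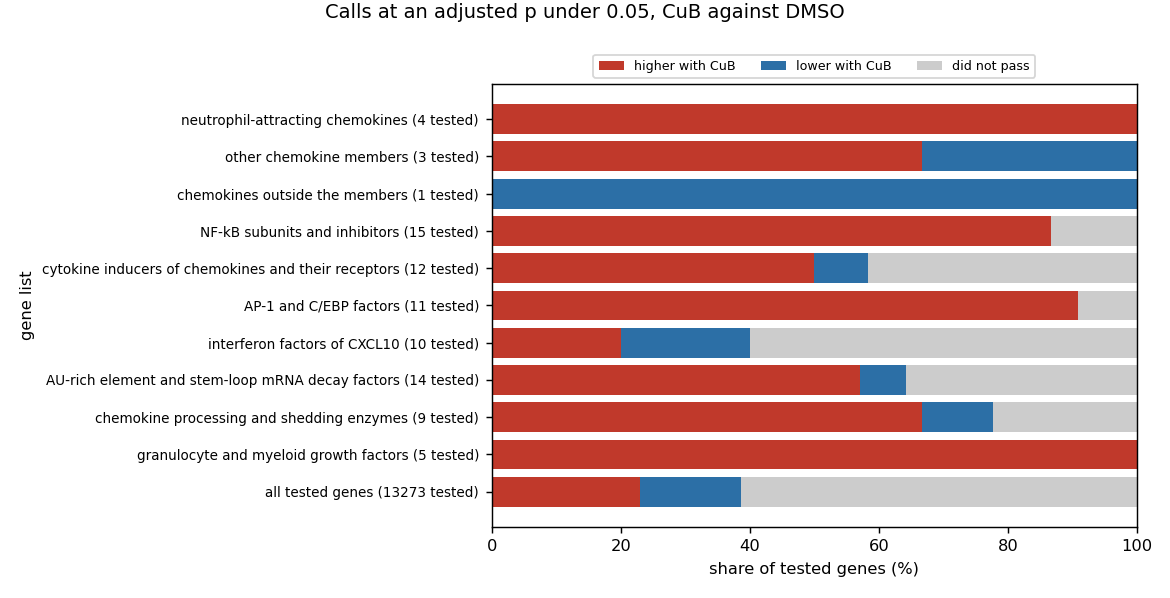
Share of the tested genes of each list called higher (red), called lower (blue) or not passing (grey) at a limma adjusted p under 0.05, CuB against DMSO, with all tested genes as the bottom bar. NF-kB genes rose in 13 of 15 and AP-1 and C/EBP genes in 10 of 11, against 22.9% of all tested genes.

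Chemokine genes outside the 10 members were almost all under the filter. Of 36 such genes 20 were at 0 in all 6 libraries and 1 passed the filter. That gene, CCL28, a mucosal chemokine, was at 1.51, 1.47 and 1.37 FPKM with CuB and 2.97, 2.57 and 3.13 FPKM with DMSO, a log2 fold change of -0.66 (SE 0.10, limma adjusted p = 0.00294). XCL1, the next by mean, was at 0.361, 0.443 and 0.783 FPKM with CuB and 0.524, 0.491 and 0.562 FPKM with DMSO, which overlap. Of 23 chemokine receptor genes 0 passed the filter and 10 were at 0 in all libraries. The highest means were those of CCR10, at 0.350, 0.539 and 0.409 FPKM with CuB and 0.224, 0.536 and 0.416 FPKM with DMSO, and of the scavenging receptor ACKR4, at 0.497, 0.266 and 0.147 FPKM with CuB and 0.459, 0.242 and 0.451 FPKM with DMSO. CXCR2, a receptor of CXCL1, CXCL2, CXCL3 and CXCL8, was at or under 0.0218 FPKM in every library.

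Marker genes of other cell types were also measured. Monocyte markers summed to 0.685 to 1.57 FPKM with CuB and 1.93 to 2.38 FPKM with DMSO, with 2 of 8 at 0 in all libraries. Lymphocyte markers summed to 0.232 to 0.604 FPKM with CuB and 0.317 to 0.606 FPKM with DMSO, with 4 of 8 at 0 in all libraries. Fibroblast markers summed to 1.90 to 2.21 FPKM with CuB and 4.24 to 4.59 FPKM with DMSO. These sums are below the level of CXCL8, CXCL1 or CXCL2 with CuB in any library. Endothelial markers, at 2.21 to 2.52 FPKM with CuB and 1.08 to 1.34 FPKM with DMSO, moved with the chemokines through KDR and TIE1, with 0 of 8 markers past the filter, and keratinocyte markers did so at 104 to 107 FPKM with CuB and 59.9 to 71.4 FPKM with DMSO. The keratinocyte sum came mostly from KRT18 and KRT10, while KRT5 and TP63 were at or under 0.0658 FPKM and 2 of the 8 markers were at 0 in all libraries. The part of these markers in the chemokine values was not tested.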

How the data were processed

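Polyadenylated RNA of 6 A375 samples, 3 with CuB and 3 with DMSO, was made into TruSeq RNA libraries (input 1 µg of total RNA), per the labels' protocols. The table the authors deposited holds FPKM values with gene identifiers, names, coordinates and lengths. The build was GRCh38, as the submitters' processing notes have it. Aligner, counting tool and scaling were not given in the sources used here. Columns were matched to samples by library name, and 0 columns with sample values went unused. All identifiers and coordinates were those of GENCODE 29, which gave 3′ UTRs (of the transcript with the longest coding part, then the longest UTR) and GC content. Promoters were matched to RefSeq by symbol.

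Each FPKM value was turned back into fragments through its step and gene length, and 100% of values were whole at a tolerance of 0.01. The library size implied by the values was 0.914 to 0.927 times the fragment total with CuB and 1.03 to 1.04 times with DMSO. Tests used limma 3.58.1 in R 4.3.3 on log2(FPKM + 1), so fold changes of low genes are understated, with an intensity trend, 4 residual degrees of freedom and no replicate block, and the Benjamini-Hochberg adjustment over 13273 genes. The table holds no raw counts, so count tests were not the main test. The limma step was tested on simulated data for CuB against DMSO, with 200 changed genes in each of 10 runs of 13285 genes on average. It recovered 31.6% of genes changed 1.5-fold, 81.1% at 2-fold and 91.6% at 4-fold, and 6.72% of calls were false. The simulated counts had a single dispersion for all genes and no library effects beyond library size. In the data 5118 genes were called, so these rates may not carry over. Python 3.11.15, matplotlib 3.10.9 and Biopython 1.88 were also used.

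The members and the 18 gene lists were chosen with earlier results of these data known, and list counts are descriptions with no test of the list. All 10 members were named. From each list the text names the 4 passing genes with the largest absolute fold change, or, with fewer than 2 passing, the 2 of highest mean, and the exceptions in counts of 5 or fewer. MITF, SOX10, ADAM10, CSF3, CXCR2 and the genes with the shared promoter letters were chosen after their values were seen. Other settings are given at the end.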

Additional observations from a re-analysis of the deposited data

How the results depend on the processing

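The calls of CXCL1, CXCL2, CXCL3, CXCL8 and CCL2 kept their direction and side of the threshold in 20 of 20 alternatives, and those of CXCL16 and CCL20 in 19 of 19, both genes being left out at a minimum mean of 5 FPKM. Log2 fold changes ranged from 3.87 to 4.34 for CXCL8, 2.90 to 3.26 for CXCL1, 3.26 to 3.87 for CXCL2, 2.54 to 3.12 for CXCL3, 1.47 to 1.91 for CCL2, 1.79 to 2.99 for CCL20 and -1.52 to -0.93 for CXCL16, with a largest adjusted p of 0.00766 among them. With that minimum, members called lower were 0, other members called higher 1 and called lower 0. The median of the other members was 1.88 with a pseudocount of 0.1, 0.74 with no filter, 1.91 with limma-voom on recovered fragments, and from 1.47 to 1.79 with a library left out, lowest without CuB replicate 1.

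Counts over all genes moved more. Genes called higher were 3046 as reported, 2021 with equal fragment totals, and 1965 (without CuB replicate 2) to 3443 with a library left out. Genes called lower were 2072 as reported, 985 at a minimum mean of 5 FPKM, 3128 with equal fragment totals, 3591 with the GC correction, 3404 with the GC correction and the replicate block, and 1297 (without CuB replicate 2) to 2312 with a library left out, with 1359 without DMSO replicate 1. Calls were 59.5% higher as reported, 69.7% at a minimum of 5 FPKM, 46.7% with each sample rescaled to the same sum, 47.1% with quantile normalization and 39.3% with equal fragment totals, which moved the median of all genes by -0.14. The cause of these moves was not tested.

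The median of the interferon list turned negative with no filter (-0.0918), the same sum (-0.0377), quantile normalization (-0.0303) and equal fragment totals (-0.0902). It did so too under the GC correction with or without the replicate block (-0.0242), and without DMSO replicate 1 (-0.0054) or 3 (-0.0104). Among the fits with a library left out its highest value was 0.107. IL1A lost its call in 3 settings and IFIT3 in 8, and of the 34 genes named for the size of their change outside the members no other did. Among genes named as exceptions, which the 34 leave out, ELAVL1 lost its call in 7 of 20 settings and TFB1M in 11, PLPP6 lost it in 1, CHUK gained one in 2 and CEBPD in 1.

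Whether replicate numbers pair the libraries is not known. Deviations of same-numbered libraries correlated at 0.27, 0.12 and -0.36, and those of differently numbered libraries at -0.49 to 0.47. These deviations are taken from group means and share library differences, so they cannot settle pairing. With the replicate block 2647 genes were called higher and 1796 lower, and the members gave 6 higher and 1 lower. Limma-voom, equal totals, the GC correction and the order after it were chosen after seeing the data. The filter left CXCL5, CXCL6 and CXCL10 out of the reported test. Without it the limma adjusted p was 0.444 for CXCL6 and 0.297 for CXCL10, and CXCL5 was at 0 in every library.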
